A study of Homo sapiens with 4 samples.

Results

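Cells that signal through the kinase ERK switch on genes whose products restrain that same signal. Of these feedback and output genes, 9 are described here in Huh-7 cells, a line from a human liver cancer (hepatocellular carcinoma), with and without transforming growth factor beta (TGF-beta). They are the MAP kinase phosphatases DUSP1, DUSP4, DUSP5 and DUSP6, the signalling inhibitors SPRY1 and SPRY2, PHLDA1, and the ETS transcription factors ETV4 and ETV5. Their probe sets were selected by gene symbol, which gave 19 probe sets for 9 of the 12165 genes on the arrays. The 9 genes were chosen on their known roles at a time when their TGF-beta against untreated differences in these same arrays were already known, so those differences are given as descriptions and not tested. The study held 4 Affymetrix arrays of total RNA, 2 from Huh-7 cells treated with TGF-beta and harvested after 48 h, and 2 from untreated Huh-7 cells. All cells were grown in medium with 10% heat-inactivated fetal bovine serum, which itself carries growth factors, and RNA came from confluent dishes. The labels used here state no TGF-beta dose and no harvest time for the untreated cells. Whether both groups were harvested at the same time is therefore not known. The labels also do not say that the 2 arrays of a group were separate cultures. The p-values therefore reflect how far the arrays of a group differed, and that spread may be technical.

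As background, growth factor receptors activate RAS, RAF, MEK and ERK in turn, and active ERK induces transcripts within minutes to hours. MAP kinase phosphatases remove the phosphates that keep ERK, p38 or JNK active. Sprouty proteins act further upstream, between the receptor and RAS. ETV4 and ETV5 carry the signal on to other genes, and transcripts of all these classes are widely used as readouts of ERK pathway output. TGF-beta signals mainly through SMAD proteins and can also engage MAP kinases in many cell types.

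RefSeq promoters (build GRCh38.p14) were matched for 5 of the 9 genes, and those of DUSP1, DUSP6 and PHLDA1 are shown because each has 1 listed start and a higher value on both TGF-beta arrays than on both untreated arrays. Each is the 250 bases before the gene's start on the minus strand: DUSP1 at chr5:172771196-172771445, DUSP6 at chr12:89352502-89352751 and PHLDA1 at chr12:76031777-76032026. Capitals mark matches, on either strand, to the cyclic AMP response element TGACGTCA, its shorter form TGACG (contained in the longer one), the AP-1 site TGANTCA, the ETS core CCGGAA, the SMAD box CAGAC or the CArG box of serum response factor.
DUSP1: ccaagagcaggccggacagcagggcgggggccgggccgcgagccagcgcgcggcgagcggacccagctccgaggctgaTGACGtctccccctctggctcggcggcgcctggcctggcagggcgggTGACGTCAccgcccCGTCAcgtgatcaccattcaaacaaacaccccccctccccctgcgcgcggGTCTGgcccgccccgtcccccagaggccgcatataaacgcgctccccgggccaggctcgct
DUSP6: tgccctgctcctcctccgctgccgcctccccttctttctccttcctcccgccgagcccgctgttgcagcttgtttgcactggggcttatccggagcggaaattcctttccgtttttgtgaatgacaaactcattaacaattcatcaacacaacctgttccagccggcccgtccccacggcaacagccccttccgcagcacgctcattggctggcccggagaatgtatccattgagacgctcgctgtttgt
PHLDA1: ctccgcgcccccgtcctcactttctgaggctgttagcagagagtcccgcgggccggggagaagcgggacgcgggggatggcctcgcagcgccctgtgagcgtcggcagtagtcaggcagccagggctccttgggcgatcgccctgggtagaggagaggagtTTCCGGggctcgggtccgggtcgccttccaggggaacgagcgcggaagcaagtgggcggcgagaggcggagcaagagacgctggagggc

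The DUSP1 promoter holds the full cyclic AMP response element, whose match begins 125 bases before the start, and 4 matches to the shorter form, of which 2 are the opposite strands of the full element. It also holds 1 SMAD box, 61 bases before the start. Over all 35116 promoters of the same length, 1.65% hold the full element, 21.2% the shorter form and 13345 of the promoters have a SMAD box. PHLDA1 has 1 ETS core, 89 bases before the start, as do 14.5% of all promoters. DUSP6 has no match to any of these motifs in this window. AP-1 sites (6.57% of promoters) and CArG boxes (1.16%) were found in 0 of these 3 promoters. A match describes the sequence only and is no evidence of binding.

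Levels below are linear intensities of probe sets, and differences are on the log2 scale. The 4 arrays were alike in overall brightness, with lower quartiles of 28.8 to 29.2 and upper quartiles of 305 to 308. All 9 measured hepatocyte markers were brighter than the median gene, with summed intensities of 103070 to 104580 with TGF-beta and 95883 to 98968 without; 1 was called higher (APOA1, log2 difference 0.74) and 1 lower (TTR, -0.63). Endothelial markers were brighter than the median gene in 0 of 6, leukocyte markers in 2 of 6 and fibroblast markers in 1 of 7 (LUM). Of these other cell type markers, CD14, a monocyte surface receptor, was called higher, with intensities of 146 and 157 with TGF-beta, against 75.6 and 75.4 without (limma adjusted p = 0.0167), and 0 were called lower. The 6 leukocyte markers did not move together: 2 differences were positive and 4 negative, and CD3D, the other one brighter than the median gene, had 154 and 163 with TGF-beta, against 285 and 204 without (adjusted p = 0.109). Summed intensities of leukocyte markers were 427 to 447 with TGF-beta and 418 to 495 without. Those of endothelial markers were 178 to 188 with TGF-beta and 189 to 190.5 without. Those of fibroblast markers were 7008 to 7506 with TGF-beta and 6941 to 7466 without. LUM made up most of the fibroblast sum, with 6777 and 7292 with TGF-beta, against 7184 and 6692 without. Of the 7 fibroblast differences, 1 was positive and 6 negative, with a median of -0.11. The mean log2 intensities of fibroblast markers were 6.295 and 6.226 with TGF-beta, against 6.541 and 6.375 without. The labels name a single cell line, Huh-7, for all 4 arrays and no other cell type. These marker values are therefore given as transcripts measured in cultures of that line. Whether any other cells were present was not tested. In bulk RNA, fewer cells making a transcript and less transcript per cell cannot be told apart.

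DUSP4, DUSP6 and DUSP5, phosphatases that act on ERK, stood higher in TGF-beta-treated cells, with differences of 0.65 to 0.90 on the log2 scale. DUSP4, an inducible phosphatase of the nucleus, had intensities of 1745 and 1622 on the TGF-beta arrays, against 731 and 1107 on the untreated arrays. Both TGF-beta arrays lay above both untreated arrays, and the untreated arrays differed from each other more than the TGF-beta arrays did. The ratio of geometric means was 1.87, a log2 difference of 0.90 ± 0.19 (SE, n = 2 per group). Its other probe set gave intensities of 1262 and 1179 with TGF-beta, against 644 and 699 without. There the untreated arrays agreed more closely, and the log2 difference was 0.86 ± 0.11 (SE).

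DUSP6, a cytoplasmic phosphatase with a strong preference for ERK, had intensities of 243 and 235 with TGF-beta, against 118 and 160.5 in untreated cells. This was a log2 difference of 0.80 ± 0.15 (SE), or 1.74-fold. Its 3 probe sets gave 0.80, 0.75 and 0.91, and in each of them both TGF-beta arrays were above both untreated arrays. The probe set with 0.75 was the least even between untreated arrays, with intensities of 229 and 241 with TGF-beta and 105 and 186 without. DUSP5, a nuclear phosphatase selective for ERK, had 116 and 115 with TGF-beta, against 67.5 and 80.3 without. Its 1 probe set had nearly equal values on the TGF-beta arrays, and the log2 difference was 0.65 ± 0.12 (SE), or 1.57-fold.

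DUSP1, an immediate-early phosphatase that acts on p38, JNK and ERK, had a smaller difference. Its intensities were 1271 and 1357 with TGF-beta, against 879 and 1128 without, so the groups did not overlap and untreated array 2 was the nearest to the TGF-beta arrays. The log2 difference was 0.40 ± 0.14 (SE), or 1.32-fold. Its other probe set, of the x_at kind that can match related transcripts, had 85.3 and 82.5 with TGF-beta, against 61.4 and 61.8 without. That gave a log2 difference of 0.45 ± 0.10 (SE).

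**Figure D1:**
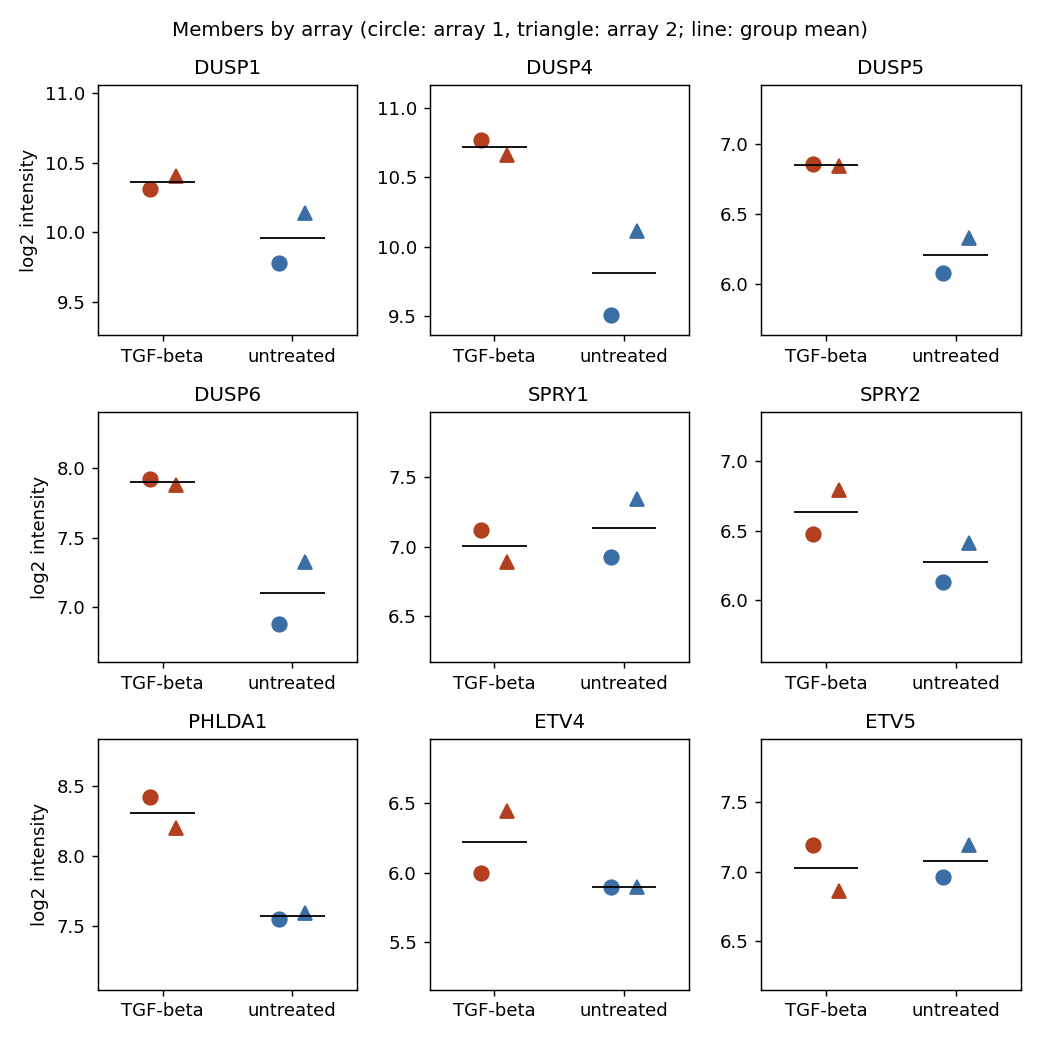
Log2 intensity of the brightest probe set of each of the 9 genes on every array, TGF-beta on the left and untreated on the right of each panel; circles are array 1, triangles array 2, and lines group means (all panels span the same log2 range). Both TGF-beta arrays lie above both untreated arrays in 7 genes and overlap them in SPRY1 and ETV5, and untreated array 2 stands above untreated array 1 in 8 genes.

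PHLDA1, a pleckstrin-homology-like domain protein induced by ERK signalling and linked to restraint of growth factor signalling, had intensities of 343 and 294 with TGF-beta, against 187 and 193 without. The groups were clearly apart and the untreated arrays nearly equal. The log2 difference was 0.74 ± 0.12 (SE), or 1.68-fold. The annotation lists 5 probe sets for this gene, and they differed in size. The second brightest had 235 and 250.2 with TGF-beta, against 122 and 205 without (log2 difference 0.62 ± 0.22, SE). The other 3 were dim, with intensities of 34.4 to 57.4 on all 4 arrays, and gave log2 differences of 0.25, 0.13 and 0.07. With the mean of all 5 probe sets the PHLDA1 difference was 0.36.

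The 2 Sprouty genes did not run together. SPRY2, an inhibitor of receptor tyrosine kinase signalling, had 89.0 and 111 with TGF-beta, against 70.1 and 85.3 without. The groups were apart by a narrow margin, and the log2 difference was 0.36 ± 0.15 (SE). SPRY1, its close relative, had 139 and 118 with TGF-beta, against 122 and 162 without. These overlapped, with TGF-beta array 2 the lowest and untreated array 2 the highest, and the log2 difference was -0.13 ± 0.16 (SE). Both genes had 1 probe set.

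The ETS factors ETV4 and ETV5, members of the PEA3 group that serve as readouts of FGF and ERK signalling, showed smaller values than the phosphatases. ETV4 had 63.7 and 87.2 with TGF-beta, against 59.7 and 59.5 without. Here TGF-beta array 2 stood well above the other 3, and TGF-beta array 1 was close to the untreated arrays. The log2 difference was 0.32 ± 0.16 (SE), or 0.10 without TGF-beta array 2. ETV5 had 146 and 116 with TGF-beta, against 125 and 146 without, so the groups overlapped. Its 3 probe sets gave log2 differences of -0.05, 0.02 and 0.02, with SEs of 0.11 to 0.15.

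**Figure D2:**
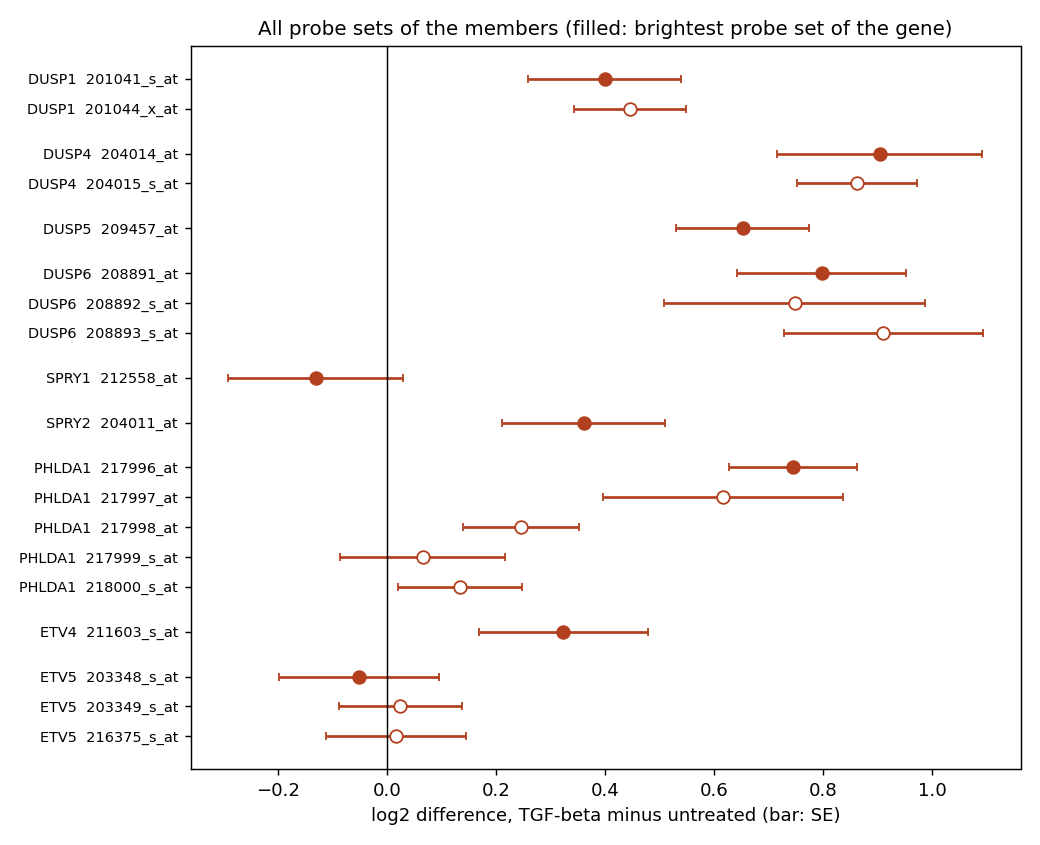
Log2 difference (TGF-beta minus untreated, bars SE) of all 19 probe sets of the 9 genes, ordered within a gene from brightest to dimmest; filled points are the brightest probe set of each gene. The probe sets of DUSP4 (0.86 and 0.90) and DUSP6 (0.75 to 0.91) lie close together, whereas those of PHLDA1 spread from 0.07 to 0.74 and those of ETV5 lie around 0.

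Over the 9 genes, 7 had positive differences and 2 negative ones, with a median of 0.40, beside a median of -0.01 over all 12165 genes. Both TGF-beta arrays lay above both untreated arrays in 7 of the 9 genes and below them in 0. Over all 12165 genes they lay above in 2830 and below in 3147, so the groups were apart in 49.1%. A gene was called when limma, a linear model that moderates each gene's variance, gave an adjusted p under 0.05 over all genes (Benjamini-Hochberg). By that rule 1 of the 9 genes was called, PHLDA1, in the higher direction, beside 0.658% of all genes called higher, 0.567% called lower and 1.22% called either way. DUSP4, DUSP5 and DUSP6 were not called by this fit. A larger absolute difference was found in 0.543% of all genes for DUSP4, 2.01% for DUSP5 and 0.945% for DUSP6. The PHLDA1 call was lost with the mean of its probe sets, where the difference was 0.36, without either TGF-beta array, under quantile normalization, with an offset of 32 and without dim genes. When each probe set was fitted by itself, 2 of the 19 were called, the second of DUSP4 and the brightest of PHLDA1, beside 0.887% of the 19724 probe sets. These counts describe genes picked with this contrast in view, and nothing is read from them.

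In the brightest probe sets of the 4 phosphatases the size of the difference depended on which untreated array it was measured from. Untreated array 2 was above untreated array 1 in 8 of the 9 genes, the exception being ETV4, and in 45.7% of all genes. The median absolute log2 gap between the untreated arrays was 0.28 in the 9 genes, against 0.13 over all genes, and between the TGF-beta arrays it was 0.22, against 0.12. The widest gaps between untreated arrays were those of DUSP4 (0.60), DUSP6 (0.44), SPRY1 (0.42) and DUSP1 (0.36). Not all probe sets of a gene had such a gap. Untreated arrays 1 and 2 had 644 and 699 in the other probe set of DUSP4, and 61.4 and 61.8 in that of DUSP1. In the other 2 of DUSP6 they had 105 and 186, and 52.2 and 78.1. In PHLDA1 they had 187 and 193 in the brightest probe set, but 122 and 205 in the second brightest. Untreated array 2 was above untreated array 1 in 15 of the 19 probe sets. Whether the culture, the RNA or the hybridisation of an untreated array moves with these values was not tested.

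With untreated array 1 left out, the log2 differences were 0.60 for DUSP4, 0.58 for DUSP6, 0.53 for DUSP5 and 0.22 for DUSP1. With untreated array 2 left out, they were 1.20 for DUSP4, 1.02 for DUSP6, 0.78 for DUSP5 and 0.58 for DUSP1. Each of these phosphatases thus kept a positive value against either untreated array, as it must where the groups do not overlap. In its brightest probe set PHLDA1 depended little on the untreated array, at 0.72 without array 1 and 0.77 without array 2. Its second brightest probe set had 122 and 205 on untreated arrays 1 and 2, against 235 and 250 with TGF-beta. ETV4 was at 0.33 without untreated array 1 and 0.32 without untreated array 2. SPRY2 was at 0.22 without untreated array 1 and 0.50 without untreated array 2, and at 0.20 without TGF-beta array 2 and 0.52 without TGF-beta array 1. SPRY1 was at -0.34 without untreated array 1 and 0.08 without untreated array 2, and ETV5 lay between -0.22 and 0.12 over the 4 fits, so neither held a direction. Without untreated array 2 the calls were 5 of 9, DUSP1, DUSP4, DUSP5, DUSP6 and PHLDA1, while 523 of all genes (4.30%) were called. A fit that leaves out an array has 1 array in that group, whose spread is assumed to be like that of the other group. Without untreated array 2 the spread thus came from the TGF-beta arrays, which lay close together in DUSP1, DUSP4, DUSP5 and DUSP6, and from the prior over all genes. Without either TGF-beta array there were 0 calls among the 9 genes and 0 among all genes (limma), where 1326 genes without TGF-beta array 1 and 1563 without TGF-beta array 2 had a p under 0.05 before adjustment. The PHLDA1 difference was 0.63 without TGF-beta array 1 and 0.86 without TGF-beta array 2.

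**Figure D3:**
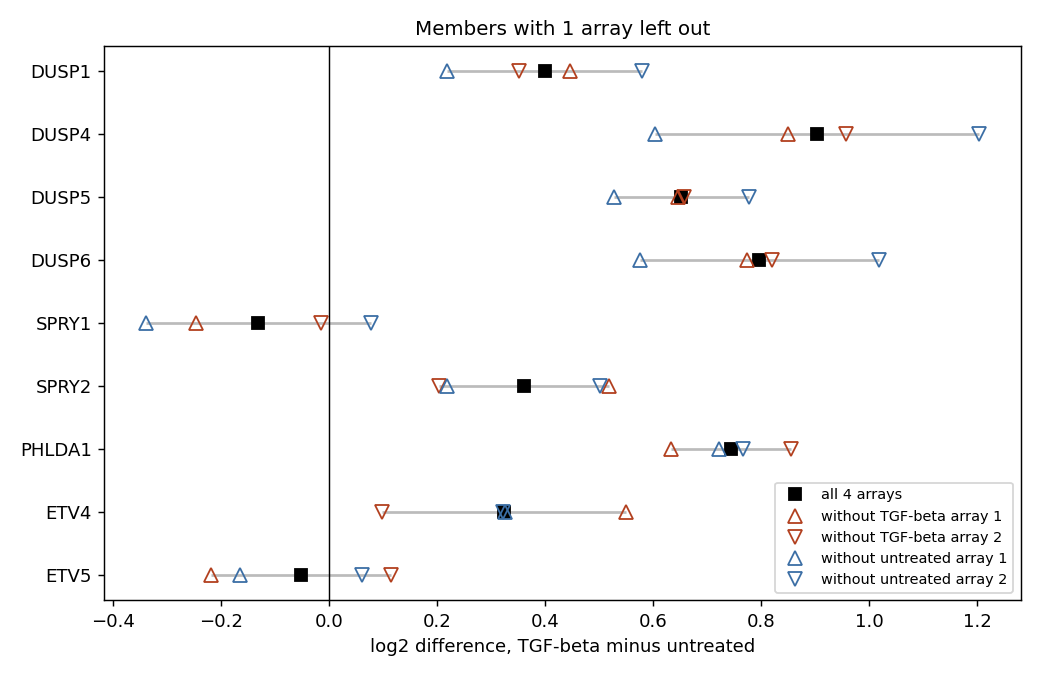
Log2 difference (TGF-beta minus untreated) of each of the 9 genes with all 4 arrays (black squares) and with 1 array left out (red, a TGF-beta array; blue, an untreated array; upward triangles, array 1; downward triangles, array 2). Each gene is shown by its brightest probe set. DUSP4 ranges from 0.60 to 1.20 and DUSP6 from 0.58 to 1.02, PHLDA1 from 0.63 to 0.86, and SPRY1 and ETV5 fall on both sides of 0.

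By Euclidean distance of log2 values centred over the 4 arrays, the genes nearest to DUSP4 among 6074 genes brighter than the median were HEATR3 (distance 0.117), HNRNPM (0.169) and CPN1 (0.184). HEATR3 had log2 intensities of 7.99 and 8.01 with TGF-beta, against 6.77 and 7.47 without, which is the same order of arrays as in DUSP4 apart from the near tie between TGF-beta arrays. For SPRY1, which had the most negative value, they were ZMYM3 (0.0299), CORO2A (0.0369) and CASK (0.0529). With 4 arrays many genes share a pattern: 50 genes lay within 2 times the third distance for DUSP4 and 17 for SPRY1.

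Genes of the pathway outside the 9 were compared by the same fit. Over all 12165 genes, 1138 were higher and 1046 lower at p under 0.05 before adjustment, 17.95% in all, and the lists' counts at that threshold stand against this share. Of 5 other MAP kinase phosphatases measured (DUSP2, DUSP7, DUSP8, DUSP9 and DUSP10), 0 were called in either direction by limma, and 1 (20%) had a p under 0.05 before adjustment. All 5 differences were positive but small, from 0.08 to 0.30, with a median of 0.11, when the brightest probe set stood for a gene. The other probe set of DUSP10, a phosphatase of p38 and JNK, went the other way, with intensities of 155 and 162 with TGF-beta, against 226 and 211 without. Its log2 difference was -0.46 ± 0.11 (SE) and was not called when all probe sets were fitted, while the brighter one overlapped between groups at 0.08 ± 0.14. The smallest p was that of DUSP8, a phosphatase of JNK and p38, with intensities of 54.3 and 53.4 with TGF-beta, against 45.7 and 41.6 without (log2 difference 0.30 ± 0.11, SE, adjusted p = 0.205). DUSP9 and DUSP7, the closest relatives of DUSP6, had log2 differences of 0.11 ± 0.12 and 0.08 ± 0.11 (SE). The 7 measured atypical dual-specificity phosphatases, which lack the kinase-docking domain of the others, had 0 calls by limma, and 0 had a p under 0.05 before adjustment. Their median was -0.01. The member with the smallest p was DUSP26, at 0.26 ± 0.13 (SE, adjusted p = 0.329).

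Among 19 measured other ERK feedback and output genes, 1 was called higher, 0 lower, and 18 did not pass. The one that rose was PHLDA2, a growth-restraining relative of PHLDA1 best known from the placenta. Its intensities were 727 and 679 with TGF-beta, against 418 and 328 without. The groups were well apart, the ratio was 1.90, and the log2 difference was 0.92 ± 0.14 (SE, limma adjusted p = 0.0371). Its other probe set was dim, at 29.5 to 36.1 on all arrays, and gave -0.10 ± 0.12 (SE). This call was lost under quantile normalization, with an offset of 32, with the mean of its probe sets and without either TGF-beta array. Before adjustment, 4 genes of the list were higher and 2 lower at p under 0.05 (31.6% of the 19), and its median was -0.01 with 9 positive and 10 negative values.

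The following genes of this list were picked after their values were seen, as relatives or fellow readouts of the 9 genes. EPHA2, a receptor kinase induced by ERK, had 293 and 257 with TGF-beta, against 205 and 169 without (log2 difference 0.56 ± 0.14, SE, adjusted p = 0.0882). SPRY4, another Sprouty, had 58.2 and 63.7 with TGF-beta, against 43.6 and 54.4 without (0.32 ± 0.14, SE, adjusted p = 0.275). Neither passed the threshold, though the groups were apart in both, and a very dim second probe set of SPRY4 gave -0.04 ± 0.11 (SE). CCND1, the cyclin that links ERK to the cell cycle, had 242 and 304 with TGF-beta, against 261 and 318 without, and its log2 difference was -0.09 ± 0.15 (SE). Its dimmer probe set lay the other way, with 112 and 113 with TGF-beta, against 54.6 and 108 without, at 0.56 ± 0.27 (SE). EREG, an EGF family ligand, and EMP1, a membrane protein, lay on the other side, at -0.53 ± 0.16 and -0.49 ± 0.12 (SE), with adjusted p of 0.132 and 0.100. The other probe sets of EMP1 gave -0.87 ± 0.19 and 0.03 ± 0.13 (SE), so they did not run together. The immediate-early genes EGR1 and FOS were dim, at 24.9 to 34.8 on all arrays, and had log2 differences of 0.01 ± 0.13 and -0.22 ± 0.13 (SE).

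The kinases themselves were measured as transcripts, which say nothing of their phosphorylation. Of 26 measured genes of the RAS-RAF-MEK-ERK cascade, 0 were called by limma, with 4 higher and 2 lower at p under 0.05 before adjustment (23.1%, near the share of all genes). Their median was 0.12, and 16 values were positive. HRAS, a RAS GTPase, had the smallest p, with 219 and 215 with TGF-beta, against 175 and 129 without (log2 difference 0.53 ± 0.15, SE, adjusted p = 0.131). Of 25 measured genes of the p38 and JNK cascades, 0 were called by limma, with 2 higher and 3 lower at p under 0.05 before adjustment (20%, near the share of all genes). Their median was 0.005. MAP2K6, a kinase that activates p38, had 146 and 153 with TGF-beta, against 290 and 221 without, so its groups were apart in the direction opposite to the phosphatases. Its log2 difference was -0.76 ± 0.14 (SE), with an adjusted p of 0.0552, just outside the threshold, and its other, dim probe set gave -0.23 ± 0.11.

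Of 14 measured other ETS factors, 0 were called by limma, with 3 higher and 1 lower at p under 0.05 before adjustment (28.6%). Their median was -0.01. ETS2, which ERK phosphorylates, had the smallest p, with 278 and 299 with TGF-beta, against 158 and 236 without (log2 difference 0.58 ± 0.18, SE, adjusted p = 0.160). As in DUSP4 and DUSP6, untreated array 2 lay between untreated array 1 and the TGF-beta arrays in this probe set. The other, dim probe set of ETS2 had 49.1 and 39.6 with TGF-beta, against 33.4 and 30.0 without. Untreated array 2 was the lowest there, and the log2 difference was 0.48 ± 0.14 (SE).

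**Figure D4:**
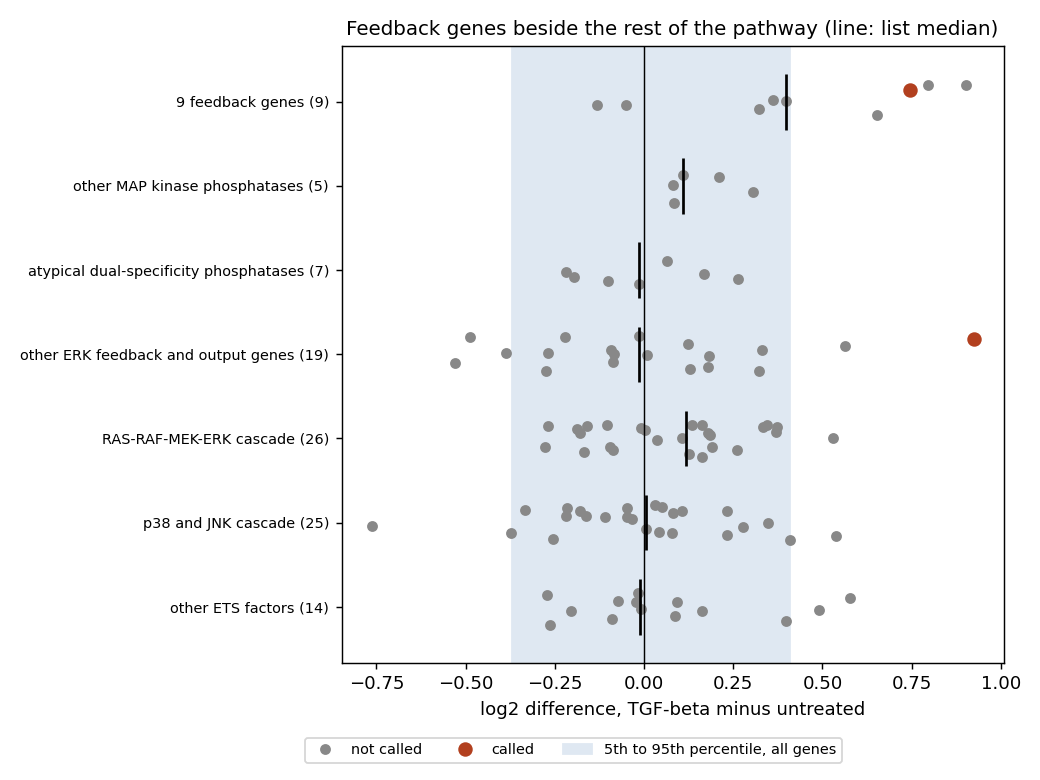
Log2 difference (TGF-beta minus untreated) of the 9 feedback genes and of the measured genes of 6 other lists, 1 point per gene, with list medians as lines, called genes in red and the 5th to 95th percentile of all genes (-0.37 to 0.41) shaded. PHLDA1 and PHLDA2 are the called genes, and DUSP4, DUSP5 and DUSP6 also lie to the right of the shaded range. Genes of the other lists lie beyond it on both sides, among them PHLDA2 (0.92) and ETS2 (0.58), and MAP2K6 (-0.76) and EREG (-0.53). The median is 0.40 for the 9 genes, inside the shaded range, and between -0.01 and 0.12 for the other 6 lists.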

How the data were processed

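Per the submitters' processing notes, the authors made the deposited probe set intensities with the affy package. How background was corrected and probes summarised is not stated in the sources used here. The deposited intensities had nearly equal quartiles on the 4 arrays and were used without further scaling, as log2 with no offset. Probe sets were named from the platform annotation, with symbols updated by Entrez number through RefSeq (GRCh38.p14). Of 22215 probe sets, 19724 name 1 gene. The brightest probe set stood for each of 12165 genes. Groups were compared with limma 3.58.1 in R 4.3.3 (lmFit, eBayes, Benjamini-Hochberg over all genes, threshold 0.05), giving 7.41 degrees of freedom per gene. The number of arrays limits the precision. The procedure was tested on simulated data, and the plots used matplotlib 3.10.9.

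The 9 genes and all lists were chosen with earlier results of these data known. Text names all 9 genes, up to 3 called genes of each pathway list or, with no call, the gene with the smallest p, and the 3 genes nearest in pattern to the most positive and most negative of the 9. Others were named after their values were seen. Alternatives were 2 other scalings, 2 other uses of probe sets, an offset of 32, a filter on dim genes, a variance trend, a replicate block and leaving out each array. List genes with no value, and 568 probe sets naming several genes, were not analysed here.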

Additional observations from a re-analysis of the deposited data

How the results depend on the processing

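With the scaling, offset, filter, use of probe sets or variance model, the 9 differences mostly moved by less than the gene's SD between arrays of a group. DUSP4 lay between 0.88 and 0.95, DUSP6 between 0.67 and 0.82 and DUSP1 between 0.38 and 0.43. With the offset of 32, ETV4 fell from 0.32 to 0.22 (SD 0.226) and SPRY2 from 0.36 to 0.26 (SD 0.212). The exceptions were DUSP5 at 0.48 with the offset of 32 and PHLDA1 at 0.36 with the mean of its probe sets, and the cause was not tested. Calls were less stable. Among the 9 genes, the count of 1 became 0 under quantile normalization, with the offset and without dim genes, 2 (of 19 probe sets) when all probe sets were fitted, 4 with the variance trend (DUSP4, DUSP5, DUSP6 and PHLDA1), and 0 to 5 when 1 array was left out. With the mean of a gene's probe sets the 1 call was DUSP4. Beside these counts, the share of all genes called was 0.518% under quantile normalization, 0.419% with the offset and 0.975% without dim genes. It was 5.06% with the variance trend and 1.33% with the mean of probe sets, and 0.887% of probe sets when all were fitted. The calls over all genes, 149, became 63 under quantile normalization, 51 with the offset, 89 without dim genes (of 9124 genes), 616 with the trend, and 0 to 523 when 1 array was left out. Calls higher made up 53 of 89 without dim genes and 89 of 194 after median centring, against 80 of 149. Among the other ERK feedback and output genes the count of 1 became 0 under quantile normalization, with the mean of probe sets and with the offset, and 0 to 2 when 1 array was left out. In the RAS-RAF-MEK-ERK cascade the count of 0 became 1 with the trend and 0 to 1 when 1 array was left out. In the p38 and JNK cascade it became 1 after median centring, 1 with the trend and 0 to 1 when 1 array was left out, and among the other ETS factors 0 to 1.

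The replicate numbers 1 and 2 do not pair the samples by their labels, and deviations of equally numbered arrays from their group means had a correlation of 0.01 over genes. With the replicate block, which leaves 1 residual degree of freedom, 5 of the 9 genes and 1229 of all genes (10.1%) were called. There were 4 calls among the other ERK feedback and output genes and 1 in the RAS-RAF-MEK-ERK cascade. The p38 and JNK cascade had 3 calls and the other ETS factors 3. The difference of PHLDA1, the called one of the 9 genes, was positive under all 12 alternatives; directions of other called genes were not followed.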
